A study of Rattus norvegicus with 7 samples.

Results

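The genes described here encode the machinery that stores neurotransmitter in vesicles and releases it at the synapse, together with their relatives in other membrane traffic. They were chosen by symbol, as every gene of the synaptotagmin, syntaxin, syntaxin-binding, VAMP, SNAP-25, synapsin, SV2, complexin, Rab3, RIM and Munc13 families with a named probe, plus Syp, Nsf, Snap91 and Pclo. This gave 65 genes with 70 probes, of 13337 genes and 22523 probes on the array. 3 of the 65 genes (Syt5, Rims2 and Stxbp5) had more than 1 probe, and the brightest was used. Of the 65 genes, 44 were above the detection limit on all 7 arrays, 16 on 1 to 6 arrays, and 5 (Syt2, Syt8, Syt9, Syt15 and Unc13a) on none.

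The rats were male Wistar rats of 280 to 320 g subjected to embolic middle cerebral artery occlusion (eMCAo), in which an injected clot blocks the artery that feeds the lateral forebrain. Total RNA of brain tissue was hybridised to Illumina bead arrays, which report the brightness of each probe in intensity units. 1 array held RNA of normal rats, which had no surgery per the study's methods. The other 6 held RNA taken at 12, 24, 48, 72, 120 or 168 hrs of eMCAo, the latest being 5 and 7 days in the labels. Values on the arrays are given with normal first and then in this order of time. The labels call the tissue of all 7 arrays ischemic brain, the normal array included, give no drug treatment for any, and name neither the brain region nor the number of animals behind an array. No group had a second array, so no difference from normal could be tested, all comparisons with normal shared the same normal array, and a gene counted as higher or lower when it lay 2-fold or more from normal and passed the detection limit of 1 array or both. Folds come from normalized values with an offset added to every intensity, so the fold of a dim gene is smaller than the ratio of its intensities.

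Release of transmitter begins when a vesicle docks at the active zone, where RIM and Munc13 proteins hold and prime it. SNARE proteins of the vesicle (VAMPs) and of the plasma membrane (syntaxin 1 and SNAP-25) then zip together, complexins clamp the bundle, and calcium binding to a synaptotagmin triggers fusion. NSF afterwards pulls the spent SNAREs apart. The same protein families serve other cells with other members, for example VAMP8 and Munc13-4 in the secretory granules of blood cells.

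The 4 neuronal SNARE genes, with Rims1 and Rims2 of the active zone, lay lowest at 72 or 120 hrs and stood nearer to normal at 168 hrs. At 120 hrs Rims1 was 2.94-fold, Snap25 2.87-fold, Vamp1 2.64-fold, Rims2 2.60-fold and Stx1a 2.43-fold lower than normal. In the opposite direction, Vamp8 was 3.10-fold and Vamp5 2.25-fold higher. Over the whole course 9 genes were at least 2-fold lower at 1 time or more (Rims1, Rims2, Snap25, Stx1a, Vamp1, Vamp2, Syt12, Nsf and Rab3d), 3 were higher (Vamp5, Vamp8 and Cplx3) and 53, undetected genes included, were at least 2-fold away at no time. These counts over the whole course have no share of all genes beside them here, and the shares by time follow. In whole tissue, fewer cells of a type and less RNA per cell cannot be told apart.

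Counted by time, 1 of the 53 release genes detected at 12 hrs or on the normal array was at least 2-fold lower, beside 0.903% of all genes detected there, and 0 were higher, beside 3.16%. At 24 hrs 0 of 57 were lower (all genes 2.69%) and 1 was higher (4.55%). At 48 hrs 1 of 55 was lower (2.63%) and 3 were higher (6.04%). These early counts were close to those of the array as a whole.

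At 72 hrs the lower limit was passed by 4 of 56 release genes, 7.14% beside 4.01% of all genes, and 2 were higher (8.28% of all genes). At 120 hrs 7 of 56 were lower, 12.5% beside 4.78%, and 2 were higher (9.09% of all genes). At 168 hrs 0 of 56 were lower (0.914%) and 1, Vamp8, was higher (5.01%). The median log2 difference from normal of the detected release genes was -0.03, -0.15, -0.11, -0.28, -0.31 and -0.13 in order of time, beside -0.04, -0.02, -0.04, -0.06, -0.07 and -0.06 for all detected genes, so the gap was widest at 72 and 120 hrs, while the sign at 12 hrs depended on the scaling. The counts at 72 and 120 hrs varied with the processing. At 120 hrs, without the background step, 13 genes were lower and 4 higher, and without normalization between arrays 5 were lower and 4 higher (72 hrs, 2 and 2).

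**Figure D1:**
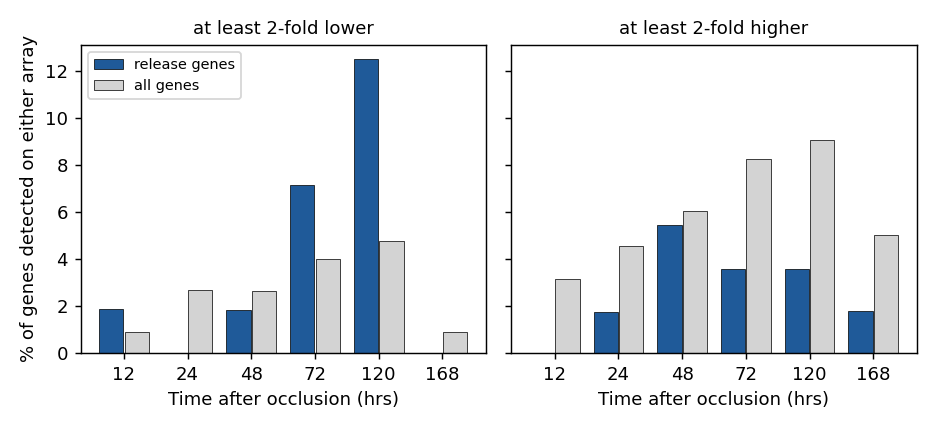
Share of genes detected on either array that were at least 2-fold lower (left) or higher (right) than normal at each time, for the release genes (blue) and all genes (grey), in percent, 1 array per time. The blue bar exceeds the grey bar among lower genes at 12, 72 and 120 hrs, and lies below it among higher genes at every time.

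The neuronal SNAREs, 4 genes on the array, made up the role with the lowest median, -1.11 at 72 hrs and -1.34 at 120 hrs on the log2 scale, and -0.44 at 168 hrs. All 4 were detected on every array. Snap25, the plasma-membrane SNARE that supplies a pair of the helices of the bundle, read 7913 on the normal array and 7219, 5970.5, 5107, 4483, 3267 and 5864 over time. Each array was dimmer than the one before it until 120 hrs, and the 168 hrs array returned to near the 24 hrs value. On the normalized scale Snap25 was lower by factors of 2.26, 2.87 and 1.47 on the last 3 arrays.

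Stx1a, the plasma-membrane syntaxin that pairs with SNAP-25 and the vesicle VAMPs, read 104 on the normal array and 107, 95.8, 73.2, 35.1, 35.1 and 70.1 over time. The normal, 12 and 24 hrs arrays were alike, and the 72 and 120 hrs arrays were nearly equal and far below them. The fold was 2.46 lower at 72 hrs and 2.43 at 120 hrs. Vamp1, the vesicle SNARE that predominates in the spinal cord and brain stem, read 184 on the normal array and 218, 118, 126, 138, 69.0 and 159.8 over time. It was highest at 12 hrs, lay between 118 and 138 from 24 to 72 hrs, and was 2.64-fold below normal at 120 hrs alone. Vamp2, the vesicle SNARE of forebrain synapses, read 204 on the normal array and 179.8, 132, 126, 108, 116 and 156 over time. All 6 arrays after occlusion were below normal, with 72 hrs the lowest (2.07-fold) and 120 hrs next to it (1.93-fold).

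Of the 4 RIM genes on the array, Rims1 and Rims2 lay low at the same times. Rims1, whose protein ties Rab3 on the vesicle to Munc13 and calcium channels at the active zone, read 335 on the normal array and 331, 309.8, 209, 114, 120.3 and 169 over time. It lay between 309.8 and 335 to 24 hrs, then stood below normal by factors of 1.66, 3.12, 2.94 and 1.93 from 48 to 168 hrs, and had the largest fold of the 65 genes in the lower direction. Rims2, its close relative, read 394 on the normal array and 415, 262, 256, 241, 166 and 232 over time. The 5 arrays from 24 hrs on were all below the first 2, with 2.60-fold at 120 hrs. The mean over its probes gave a log2 difference of -0.89 there, which does not reach 2-fold.

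**Figure D2:**
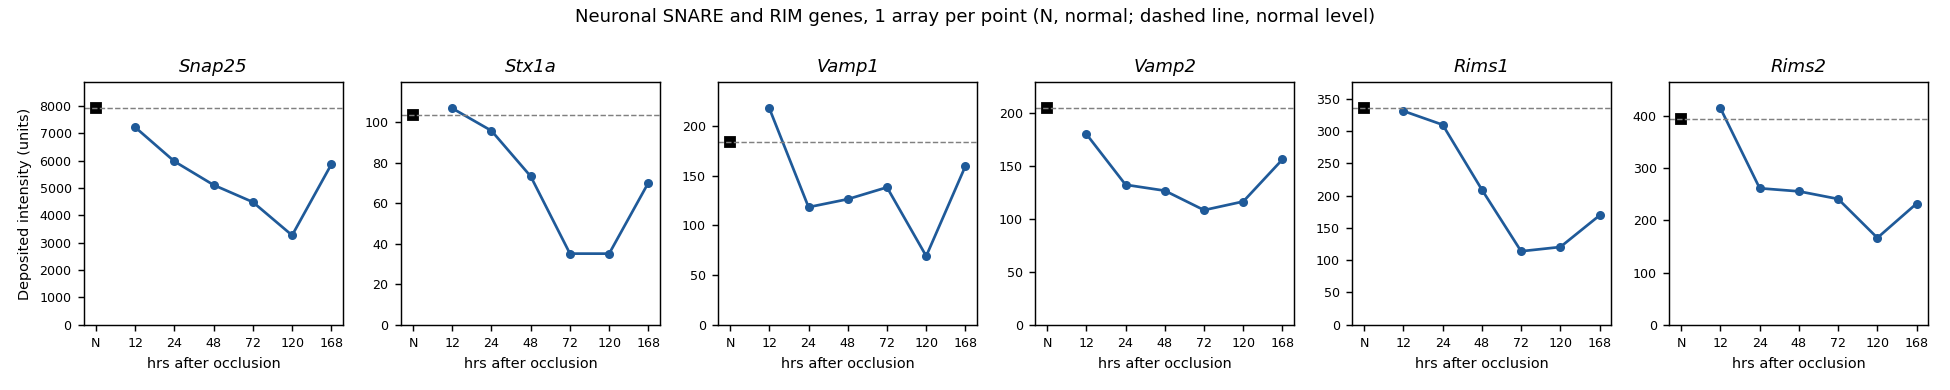
Deposited intensity (vertical axis, intensity units, from 0) of the neuronal SNARE genes Snap25, Stx1a, Vamp1 and Vamp2 and the RIM genes Rims1 and Rims2 on the normal array (square, N) and at each time after occlusion (circles), 1 array per point and no error available. In all 6 panels the 72 and 120 hrs points lie below the dashed normal level and the 168 hrs point lies above the 120 hrs point.

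The promoters of these genes were read from RefSeq (rat build GRCr8), the 250 bases before the start of transcription. Of the 65 genes, 53 matched, with 58 windows since some genes have several starts. Snap25, Rims2 and Syt12 were not among them. The windows were searched on both strands for 5 motifs. The windows of the neuronal SNARE and RIM genes at least 2-fold lower are shown for the 4 that matched, 5′ to 3′, with each motif match in capitals. The motifs with a match in these windows were the GC box, spelled GGGCGG on one strand or the other, the CCAAT box, which bears its letters as its name, and the cyclic AMP response element TGACGTCA. The GC box and the CCAAT box could overlap. The windows lie at chr12:27306472-27306721, minus strand for Stx1a, chr9:32692773-32693022, minus strand for Rims1, chr4:159698644-159698893, plus strand for Vamp1 and chr10:54292539-54292788, plus strand for Vamp2.
Stx1a: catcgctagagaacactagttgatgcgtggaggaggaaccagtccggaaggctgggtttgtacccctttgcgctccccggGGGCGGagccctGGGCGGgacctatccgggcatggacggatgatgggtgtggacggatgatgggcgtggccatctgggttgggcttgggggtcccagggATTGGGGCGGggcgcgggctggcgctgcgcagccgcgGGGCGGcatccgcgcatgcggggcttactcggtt
Rims1: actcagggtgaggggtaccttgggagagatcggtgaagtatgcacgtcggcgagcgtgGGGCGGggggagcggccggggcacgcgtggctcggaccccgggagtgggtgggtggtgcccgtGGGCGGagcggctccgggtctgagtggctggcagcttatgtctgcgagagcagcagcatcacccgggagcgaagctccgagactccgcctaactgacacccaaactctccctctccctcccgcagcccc
Vamp1: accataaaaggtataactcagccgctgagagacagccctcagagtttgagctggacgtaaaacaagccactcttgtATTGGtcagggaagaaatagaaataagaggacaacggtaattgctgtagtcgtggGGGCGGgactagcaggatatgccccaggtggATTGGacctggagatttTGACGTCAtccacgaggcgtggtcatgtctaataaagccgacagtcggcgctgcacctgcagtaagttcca
Vamp2: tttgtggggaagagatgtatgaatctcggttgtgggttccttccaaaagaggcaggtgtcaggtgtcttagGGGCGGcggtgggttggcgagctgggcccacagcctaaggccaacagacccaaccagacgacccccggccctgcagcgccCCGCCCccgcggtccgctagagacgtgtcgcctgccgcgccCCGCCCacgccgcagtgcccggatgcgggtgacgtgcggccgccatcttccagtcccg
Stx1a held 4 GC boxes, one of them sharing letters with a CCAAT box. Rims1 held 2, Vamp2 held 3 and Vamp1 held 1, beside the only cyclic AMP response element among the genes at least 2-fold lower that matched. A GC box was present in the windows of all 6 lower genes that matched (these 4, Nsf and Rab3d), in 36 of the 58 windows of release genes (62.1%) and in 30.5% of 33469 promoters of all genes. The cyclic AMP response element was present in 2 windows (Syn1 and Vamp1), beside 1.59% of all promoters. The letters TCAGCACC, part of the RE1 repressor element of neuronal genes, were present in 2 (Rab3c and Syt4), beside 1.25%. The CCAAT box was present in 17 (29.3%), beside 34% of all promoters. A match is a description of the letters only.

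The remaining active zone genes were dim. Unc13b and Unc13c encode Munc13-2 and Munc13-3, priming factors of which the latter is known from the cerebellum. Unc13c read 47.3 on the normal array and then, in order of time, 33.2, 19.7, 22.5, 28.9, 20.3 and 33.3, below normal on all 6 arrays and at most 1.78-fold so. Unc13b was at least 1.73-fold lower at 120 hrs, where it was not detected. Rims4 ran from -0.59 to -0.28 on the log2 scale, while Rims3, a short RIM, stayed between -0.05 and 0.25. Pclo, a giant scaffold of the active zone, was above the limit on only 3 arrays. The median of the role was -0.83 at 120 hrs over 6 detected genes.

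The proteins that act on the SNARE bundle had different courses. Nsf, the ATPase that takes used SNAREs apart, read 1682 on the normal array and 1919.6, 1409.7, 1717, 1197, 941 and 1699 over time. The 12, 48 and 168 hrs arrays were at or above normal and the 120 hrs array was 2.01-fold below it, just past the limit. Cplx1, a complexin of brain synapses, read 118 on the normal array and then, in order of time, 130.3, 92.7, 106, 94.1, 60.5 and 104, with 1.95-fold at 120 hrs. Cplx3, a complexin known from retina and from deep cortical neurons, read 14.9 on the normal array and then, in order of time, 34.2, 21.9, 89.4, 6.49, 18.1 and 27.3. It stood apart at 48 hrs alone, 2.68-fold above normal, with its 72 hrs value below the detection limit. Cplx4, which is known from retina, also had its highest value at 48 hrs (27.5 against 11.0 on the normal array, 1.37-fold on the normalized scale).

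Among the calcium sensors, Syt1, which triggers fast release in forebrain neurons, read 7407 on the normal array and 7338, 6564, 6358, 6018, 4766 and 7301 over time. The 120 hrs value was 1.87-fold and the 168 hrs value 1.09-fold under normal. Syt2 and Syt9, the other sensors of fast release, were not detected on any array.

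Of the 12 other synaptotagmins, Syt12, which does not bind calcium, was the lowest. It read 90.6 on the normal array and 63.1, 43.3, 35.9, 43.5, 39.3 and 50.2 over time. All 6 arrays were below normal, and those at 48 and 120 hrs just passed 2-fold (2.05 and 2.05). Syt16, a divergent member of the family, read 54.2 on the normal array and then, in order of time, 37.4, 43.4, 32.1, 22.5, 20.5 and 25.4, also below normal on all 6 arrays and 1.95-fold at 120 hrs. Syt13, which does not bind calcium either, read 41.9 on the normal array and then, in order of time, 33.3, 28.3, 43.8, 21.7, 12.6 and 18.0, with 1.95-fold at 120 hrs.

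Syt4, a synaptotagmin that neuronal activity induces, ran the other way early. It read 50.3 on the normal array and 80.7, 105, 75.8, 54.6, 49.3 and 43.7 over time. The 12, 24 and 48 hrs arrays were above normal, by at most 1.56-fold at 24 hrs, and those at 72, 120 and 168 hrs were within 1.2-fold of it. Syt3, Syt7 and Syt11 stayed between -0.57 and 0.15 on the log2 scale. Syt5, Syt6 and Syt10 were detected on 2 to 4 arrays, never on the normal one.

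No detected vesicle membrane gene was 2-fold from normal at any time. Syp, synaptophysin, the most common label for synaptic vesicles, read 4031 on the normal array and 4699, 3477, 3755, 3179.6, 2510.0 and 3179 over time. The 12 hrs array was the highest and the 120 hrs array the lowest, 1.88-fold under normal. Sv2b, a vesicle glycoprotein of glutamatergic synapses, read 25110.5 on the normal array and 28398, 28098, 17887, 21809.5, 23538 and 16396 over time. Its first 3 arrays were all brighter than the other 4. The normalized log2 differences of those 4 were -0.70, -0.70, -0.49 and -0.77, and without normalization between arrays -0.49, -0.20, -0.09 and -0.61. Sv2a, the binding site of the antiepileptic levetiracetam, lay between 21.6 and 31.7, with normal the highest, and was already below it at 12 hrs (log2 difference -0.37) and nearest to it at 168 hrs (-0.06). Sv2c was detected at 24 hrs only.

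Synapsins, which tether vesicles in the reserve pool, were brightest at 12 hrs. Syn2 read 95.8 on the normal array and then, in order of time, 133, 103, 100.2, 71.7, 55.3 and 103, and was 1.26-fold above normal at 12 hrs, 1.74-fold below it at 120 hrs and 1.04-fold above it at 168 hrs. Syn1 read 55.1 on the normal array and then, in order of time, 71.3, 54.8, 39.1, 34.0, 38.4 and 46.0, with its largest shortfall, 1.58-fold, at 72 hrs. Syn3 was dim, between 14.5 and 29.0. Snap91, the clathrin adaptor AP180 that gathers vesicle membrane for recycling, read 878 on the normal array and then, in order of time, 993, 985, 960.3, 715, 643 and 784. The arrays to 48 hrs were all above normal and the last 3 below it, by 1.58-fold at 120 hrs.

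The Rab3 GTPases, which guide vesicles to the release site, split by time. Rab3d, known from the secretory granules of gland and mast cells, read 365 on the normal array and 168, 244, 371, 379, 418 and 349 over time. It was the only release gene at least 2-fold lower at 12 hrs (2.11-fold), stayed 1.58-fold lower at 24 hrs, and was within 1.2-fold of normal on the 4 later arrays. Rab3a, the main Rab of synaptic vesicles, read 153 on the normal array and then, in order of time, 245, 145, 145, 152, 110.2 and 132, highest at 12 hrs (1.44-fold above normal) and lowest at 120 hrs (1.58-fold below). Rab3c read 13.0 on the normal array and then, in order of time, 28.9, 18.0, 11.9, 4.37, 4.90 and 9.43, and was under the detection limit at 72 and 120 hrs. Rab3b stayed between 83.4 and 121.

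**Figure D3:**
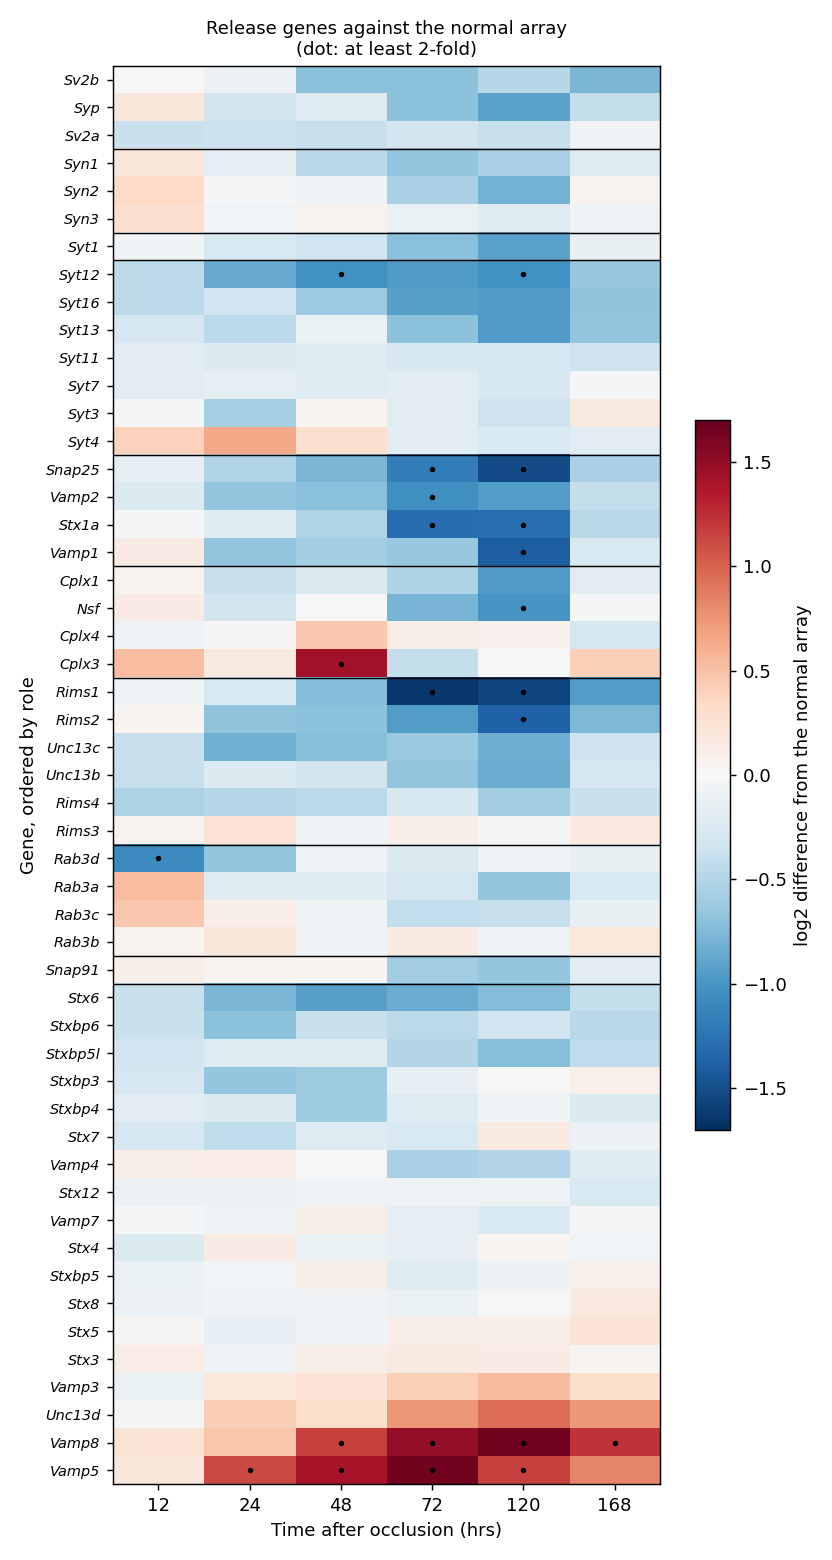
Log2 difference from the normal array (colour, blue lower and red higher) at each time (columns, hrs after occlusion) for the 51 release genes detected on the normal array (rows), grouped by role between black lines and sorted by their mean within a role. Dots mark at least 2-fold, and the blue cells with dots gather at 72 and 120 hrs among the neuronal SNARE genes, Rims1 and Rims2 while the red cells with dots belong to Vamp5, Vamp8 and Cplx3.

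The SNAREs and partners of other membrane traffic, 22 genes, had a median of 0.03 at 120 hrs, and 0 of the 19 to 21 detected per time were at least 2-fold lower, beside 0.903% to 4.78% of all genes. Vamp8, a SNARE of late endosomes and of secretory granules in blood cells, read 239 on the normal array and 306, 385, 623, 924, 951 and 624 over time. Each array to 120 hrs was brighter than the one before it, and the 168 hrs array was level with the 48 hrs one. From 48 to 168 hrs Vamp8 exceeded normal by factors of 2.25, 2.81, 3.10 and 2.35. Vamp5, a VAMP first described in muscle, read 77.3 on the normal array and 97.3, 218, 269.6, 373, 249 and 166 over time. It passed 2-fold earlier, with 2.17-fold at 24 hrs, and peaked earlier, with 3.13-fold at 72 hrs. These were the only 2 of the 44 release genes detected on all arrays that were above normal at all 6 times. Of all 7770 genes detected on every array, 1322 were above normal at all 6 times.

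Vamp5 and Vamp8 are next to each other on rat chromosome 4 in the RefSeq table (GRCr8), on the same strand with 0 genes listed between them. Their promoter windows are shown because these adjacent genes were the pair above normal at all 6 times. Capitals again mark motif matches. The window of Vamp8 lies at chr4:106005643-106005892, minus strand and that of Vamp5 at chr4:105993248-105993497, minus strand.
Vamp8: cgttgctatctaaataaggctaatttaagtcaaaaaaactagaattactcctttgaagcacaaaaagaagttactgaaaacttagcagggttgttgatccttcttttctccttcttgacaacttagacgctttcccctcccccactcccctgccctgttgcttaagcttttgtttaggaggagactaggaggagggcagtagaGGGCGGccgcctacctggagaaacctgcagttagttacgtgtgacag
Vamp5: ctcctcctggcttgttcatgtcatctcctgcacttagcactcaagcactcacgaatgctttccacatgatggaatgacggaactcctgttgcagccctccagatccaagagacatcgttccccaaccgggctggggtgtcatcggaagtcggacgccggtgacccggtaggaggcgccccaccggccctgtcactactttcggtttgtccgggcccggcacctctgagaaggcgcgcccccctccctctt
The window of Vamp8 held 1 GC box. That of Vamp5 held none of the 5 motifs, and neither held GAGGAAGT, a form of the PU.1 site of myeloid cells, which was in 0 of the 58 windows and in 2.04% of all promoters. The flanking genes, chosen after their values were seen, were measured on the same arrays. Rnf181, next to Vamp5, read 368 on the normal array and then, in order of time, 424, 545, 471, 495, 497 and 414. Ggcx, the nearest measured gene beyond Vamp8, read 354 on the normal array and then, in order of time, 396, 456, 421, 483, 512 and 433. Neither was 1.5-fold from normal on any array. Tmem150a, on the far side of Rnf181, read 197 on the normal array and then, in order of time, 148, 285, 248, 347, 411 and 230.0, with a log2 difference of at most 0.72, at 120 hrs.

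Unc13d, Stxbp2 and Vamp3 also had their brightest arrays at 72 and 120 hrs. Unc13d, which encodes Munc13-4 and is needed for granule release by cytotoxic lymphocytes, read 14.7 on the normal array and 15.6, 30.9, 27.1, 52.3, 63.6 and 41.3 over time, with 1.93-fold at 120 hrs. Stxbp2, which encodes Munc18-2, the partner of syntaxin 11 in that release, read 1.55 on the normal array and 9.27, 5.25, 12.2, 26.4, 33.8 and 13.5 over time. It was not above the limit on the normal array, and exceeded it by at least 1.35-fold on the 72 hrs array and at least 1.53-fold on the next. Stx11 itself passed the limit on 1 array only, at 120 hrs (9.93), and read 6.41 on the normal array and 4.44 at 72 hrs. Vamp3, the SNARE of recycling endosomes, read 474 on the normal array and then, in order of time, 444, 590.1, 599, 793, 815 and 597, with 1.45-fold at 120 hrs.

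**Figure D4:**
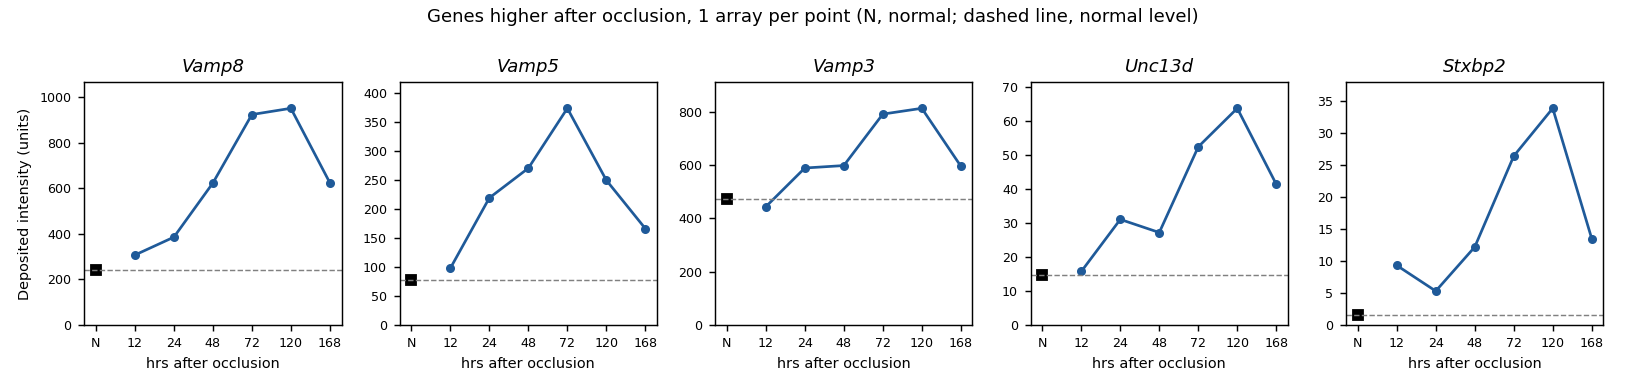
Deposited intensity (vertical axis, intensity units, from 0) of Vamp8, Vamp5, Vamp3, Unc13d and Stxbp2 on the normal array (square, N) and at each time after occlusion (circles), 1 array per point and no error available. The 72 and 120 hrs points are the highest in every panel except that of Vamp5, where 48 hrs is above 120 hrs, and all 168 hrs points lie below those of 120 hrs.

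Stx6, a syntaxin of the trans-Golgi network, read 638 on the normal array and then, in order of time, 490.1, 393, 345, 420.1, 433 and 486. All 6 arrays were below normal, by at most 1.90-fold at 48 hrs. Stx7, a syntaxin of late endosomes, read 2125 on the normal array and then, in order of time, 1808, 1644, 1892, 2192, 2767 and 2055, lowest at 24 hrs and highest at 120 hrs. Stxbp6, known as amisyn, was detected on 6 of the 7 arrays and lay below normal at all 6 times, with log2 differences from -0.70, where it was under the detection limit, to -0.32. Stxbp3, which works with Stx4 at the plasma membrane of many cells, was 1.58-fold lower at 24 hrs and 1.52-fold at 48 hrs, while Stx4 lay between -0.25 and 0.15 on the log2 scale. Vamp4, another trans-Golgi SNARE, was 1.46-fold lower at 72 hrs. Stx5 of the Golgi, Stx8 and Stx12 of endosomes, Vamp7 of lysosomes, Stx3 and Stxbp5 all stayed within -0.26 and 0.21. A dimmer probe of Stxbp5, also detected on all 7 arrays, was below normal at all 6 times (-0.44 to -0.23). Stxbp4, Stxbp5l, Stx16 and Stx17 were detected on some arrays only.

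Most release genes detected on all arrays were higher at 168 than at 120 hrs on the normalized scale. Of the 44 detected on all arrays, 33 (75%) were higher at 168 than at 120 hrs, beside 53.8% of 7770 genes detected on all arrays, with a median step of 0.27 on the log2 scale beside 0.03. The 120 hrs array was the lowest of the 7 for 18 release genes (40.9%) beside 22.8% of all genes. Both times were 1 array each. Without normalization between arrays the median difference from normal of the detected release genes was -0.11 at 120 hrs and -0.12 at 168 hrs. That of all detected genes was then 0.13 and -0.04, so the rise of the release median depended on the scaling.

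The other genes of the pathway were described as lists, beside the shares of all genes at least 2-fold away (lower, 4.01% at 72 hrs and 4.78% at 120 hrs, and higher, 8.28% and 9.09%). Among 21 further genes of the active zone and its calcium channels, the lower 2-fold limit was passed by 7 of 19 detected genes at 72 hrs and 8 of 18 at 120 hrs, and the upper by none (medians -0.75 and -0.79). Lin7b, a scaffold that joins CASK, was the lowest and read 436 on the normal array and then, in order of time, 378, 149, 92.1, 132, 115 and 226, with the 48 hrs array 4.19-fold and the 120 hrs array 3.89-fold under normal. Ppfia1, a liprin, was the highest by mean, with 1.16-fold above normal at 120 hrs. On the other side of the synapse, the postsynaptic density had 5 of 13 detected genes under the 2-fold limit at 72 hrs and 5 of 12 at 120 hrs (medians -0.60 and -0.62), from Camk2b, a subunit of the calcium kinase of the density, at 3.29-fold lower at 120 hrs to Homer2, a scaffold, at 1.14-fold.

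The genes that recycle and fill vesicles were nearer to normal than the active zone and postsynaptic lists at 72 and 120 hrs. On the normalized scale their medians were still below those of the release genes (-0.28 and -0.31). For endocytosis 2 of 21 passed the lower limit at 72 hrs and 2 at 120 hrs, with medians of -0.50 and -0.48. Pacsin1, a neuronal membrane-bending protein, was the lowest by mean over the 6 times (2.43-fold lower at 120 hrs) and Clta, a clathrin light chain, the highest by mean (1.52-fold higher at 120 hrs). For transmitter loading and the proton pump 1 of 15 was lower at 72 hrs, Slc17a7 of glutamatergic vesicles (2.23-fold, named after its value was seen), and 0 of 16 at 120 hrs. The medians were -0.33 and -0.39, with 15 of 15 and 15 of 16 detected genes below normal. Over the scalings the 72 hrs median ran from -0.33 to 0.03. Atp6v1g2, a neuronal pump subunit, was the lowest of this list by mean (1.89-fold lower at 120 hrs) and Atp6v1b2, the pump's brain B subunit, the highest by mean (1.33-fold higher at 12 hrs). At 12 hrs 1 gene of this list passed the upper limit, Slc17a6, another loader of glutamate (2.41-fold, named after its value was seen). Among other vesicle proteins 1 of 19 was lower and 2 were higher at 120 hrs. Synpr, a relative of synaptophysin, was the lowest of these by mean (1.93-fold lower) and Rab3il1, an exchange factor for Rab3 and Rab8, the highest (4.11-fold higher).

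Some lists of cell type and region markers were lowest or highest at the same times as these genes, and others were not. All 13 neuron markers were detected on every array, and their summed intensity was 26680.1 on the normal array and then, in order of time, 30433, 25637, 27691, 23256, 18631 and 22844. Their median log2 differences were 0.05, -0.20, -0.29, -0.77, -0.81 and -0.38, lowest at 120 hrs as for the neuronal SNAREs, and the 2-fold limit was passed downward by 1 of 13 at 72 hrs and by 3 at 120 hrs. Beside them the SNARE medians were -0.09, -0.58, -0.65, -1.11, -1.34 and -0.44. Markers of the striatum, a region fed by the occluded artery, summed to 14533 on the normal array and then, in order of time, 3651, 6135, 3365, 4441, 1859 and 2619, so that they too were lowest at 120 hrs. Their course was otherwise unlike that of the SNAREs, with medians of -1.99 already at 12 hrs and -2.69 still at 168 hrs. Markers of cortex and hippocampus summed to 20587 on the normal array and then, in order of time, 15032, 11148, 10104, 9473, 9248 and 15232, with median log2 differences of -0.33, -0.34, -0.70, -1.16, -1.19 and -0.44, also lowest at 120 hrs. This marker list shared Slc17a7 with the list for transmitter loading. Markers of thalamus and cerebellum shared Slc17a6 with it, and had medians of 1.15 at 12 hrs and -0.78 at 24 hrs over 5 detected genes. Blood markers summed to 454 on the normal array and then, in order of time, 10886, 5716, 1464, 1468, 210 and 114. Markers of hypothalamus and pituitary summed to 217 on the normal array and then, in order of time, 2863, 2140.0, 279, 470.0, 8764 and 1919. Oligodendrocyte and astrocyte markers had their lowest medians at 24 hrs (-1.13 and -0.75) and stood at -0.66 and -0.29 at 120 hrs. The sign of the astrocyte median at 120 hrs depended on the scaling (-0.29 to 0.01). The summed intensity of the astrocyte markers ran otherwise than their median. It was 35849.5 on the normal array and then, in order of time, 35417, 38720, 40252, 49674, 49179 and 40403. The median of choroid plexus markers was 1.44 at 12 hrs and -0.63 at 72 hrs. That of endothelium markers was 0.34 at 120 hrs. The labels do not name the region taken, and the part of neuron number or of region in the lower release genes was not tested.

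Phagocyte markers, 12 of 13 of them detected on the normal array and Ptprc not, summed to 4142 on the normal array and then, in order of time, 6811, 14619.9, 24068, 51576, 66484 and 38119. They were highest at 120 hrs, as Vamp8, Vamp3, Unc13d and Stxbp2 were, and all 13 were at least 2-fold above normal at 72, 120 and 168 hrs. These times were not particular to phagocytes, since the astrocyte sum was also highest at 72 and 120 hrs. The endothelium sum was highest at 72 hrs, as Vamp5 was (4484, beside 2494 on the normal array). Neutrophil markers, 0 of 8 detected on the normal array, summed to 20.5 on the normal array and then, in order of time, 425, 448, 467, 467, 408 and 113. The part of these cells in the higher release genes was not tested.

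**Figure D5:**
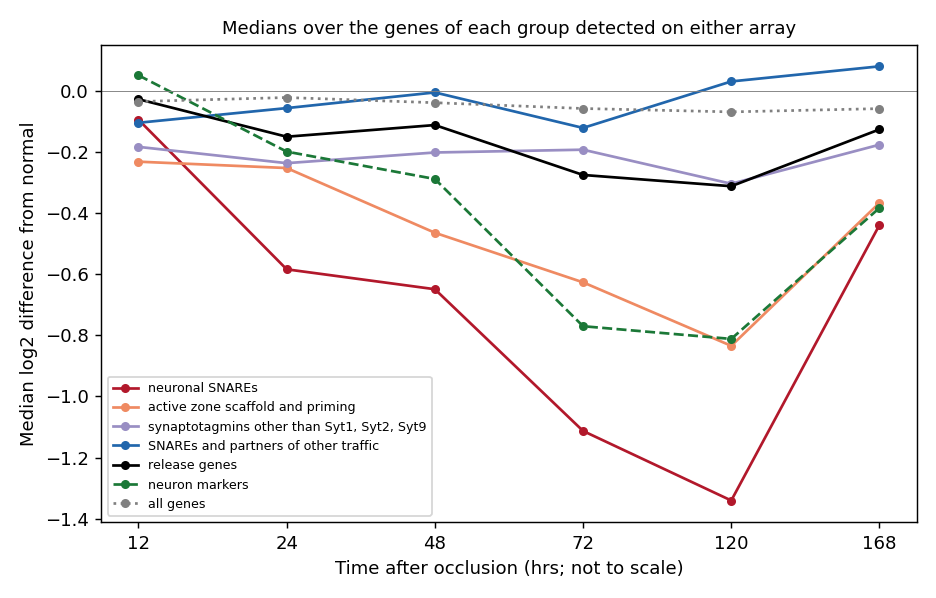
Median log2 difference from the normal array (vertical axis) at each time after occlusion (horizontal axis, equally spaced) over the detected genes of 4 roles, of all release genes, of the neuron markers (dashed) and of all genes (dotted), 1 array per time. The neuronal SNAREs run lowest from 24 hrs on, reach -1.34 at 120 hrs and stand at -0.44 at 168 hrs, while the SNAREs of other traffic stay near 0.

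The study set an acute phase, up to 24 hrs, against a recovery phase from 48 hrs on. With the 12 and 24 hrs arrays as the acute ones here, this comparison could be tested with limma, although the arrays of a phase are time points and not replicates of 1 condition. Of 57 release genes tested, 0 passed an adjusted p of 0.05, and 0 of all 9449 genes did. At an unadjusted p under 0.05 there were 13 release genes, 10 lower and 3 higher in the recovery phase, beside 23.4% of all genes (11.2% lower and 12.2% higher). With both directions together their share was close to that of the array. By direction, more of them were lower than higher, while all genes were split almost evenly. The largest differences by p were those of Vamp8, 1.03 ± 0.17 (SE; adjusted p = 0.0778), Sv2b, -0.61 ± 0.11 (SE; adjusted p = 0.0778), and Rab3d, 0.74 ± 0.15 (SE; adjusted p = 0.0778), all as recovery minus acute on the log2 scale. Next came Rims1, -1.06 ± 0.28 (SE; adjusted p = 0.100), Rab3c, -0.53 ± 0.16 (SE; adjusted p = 0.115), Syt4, -0.60 ± 0.19 (SE; adjusted p = 0.127), and Syn1, -0.49 ± 0.17 (SE; adjusted p = 0.155). On the higher side Stxbp2 had 0.46 ± 0.17 (SE; adjusted p = 0.171), Unc13d 0.49 ± 0.21 (SE; adjusted p = 0.216) and Vamp3 0.34 ± 0.14 (SE; adjusted p = 0.217). Stxbp2 was under the detection limit on both acute arrays. All 4 recovery arrays were above both acute arrays for Vamp8 and Rab3d and below both for Sv2b, Rims1, Rab3c, Syt4 and Syn1. Without normalization between arrays the limma adjusted p was 0.182 for Sv2b and 0.112 for Vamp8 and Rab3d. Sv2b was among the 24 brightest probes of every array, and quantile normalization sets values by rank. Without the 48 hrs array 4 release genes passed in limma (adjusted p = 0.0239 for Vamp8, 0.0406 for Rims1, 0.0432 for Syt4 and 0.0445 for Sv2b) among 565 of all genes, and with any other single array left out 0 release genes did.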

How the data were processed

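Per the study's methods and the labels, 400 ng of total RNA was amplified, biotin-labelled and hybridised to Illumina rat bead arrays. The deposited intensity values used here were made by the authors with BeadStudio, per the methods, and GenomeStudio 1.8.0, per the submitters' processing notes. The methods mention background subtraction and a normalization to 5S rRNA, without saying which arrays had the latter. The values were linear, with 20.8% to 21.9% below 0 on each array. A second deposited table, with 48 columns for 12 arrays of another chip that no sample label names, was not used. No group had replicates.

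A normal-exponential background model (limma 3.58.1 in R 4.3.3) was fitted per array. After adding an offset of 16, values were put on the log2 scale and made to share 1 distribution by quantile normalization, which understates folds of dim genes. Probes were named from the platform table, and each gene was represented by its brightest probe. As detection limit, negative values were mirrored about 0 and their 98th percentile taken (8.72 to 10.1 intensity units). Between 8656 and 9066 genes passed it per array. Median intensities ran from 13.1 to 16.5. Where the dimmer array was below the limit, the fold is a lower bound, taken against the lowest level detected on that array or against the gene's own value if higher. Phases were compared by a two-sided limma fit (lmFit, then eBayes with its trend and robust options), with Benjamini-Hochberg adjustment over the 9449 genes above the limit on 2 or more of 6 arrays. The fit was run on simulated data with independent values and changes larger than the phase differences reported here. That simulation held no course over time, so it cannot show how the fit performs on these arrays. The p-values of the fit measure the spread between time points, not between animals.

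The genes, lists and tests were chosen with earlier results of these data known. Values on every array are given for 27 genes: those at least 2-fold from normal, the 12 lowest and 6 highest by mean, the 5 smallest p in each direction between phases, and the brightest of each role. Others were added for their role after their values were seen. Alternatives were other scalings, no background step, an offset of 50, other probe and detection rules, other fold limits and leaving out each array.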

Additional observations from a re-analysis of the deposited data

Results flagged for a closer look

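The 27 release genes named by rule were each checked for an array that stood apart from the other recovery-phase arrays (48, 72, 120 and 168 hrs). Syt4 was singled out: its 48 hrs array was the highest of the 4, and the gap to the next array was 0.84 of their whole range, above the limit of Dixon's test at the 95% level for 4 values. Its log2 difference from normal was 0.27 at 48 hrs and -0.17, -0.26 and -0.18 at 72, 120 and 168 hrs. Chance flags about 1 in 20 groups, so 1 flag among 27 genes is no more than chance gives.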

How the results depend on the processing

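The counts of release genes depended most on the fold limit. At 1.5-fold there were 11, 15, 22, 25 and 9 genes from 24 to 168 hrs, and at 3-fold 0, 0, 0, 2, 1 and 0 from 12 hrs on. An offset of 50 gave 0, 0, 2 and 5 genes at 12, 24, 48 and 120 hrs, and no background step gave 17 at 120 hrs. For all genes a limit of 1.5-fold gave 1103, 1896, 2068, 2685, 2826 and 1331 in order of time, one of 3-fold gave 144, 237, 329, 473, 567 and 231, and an offset of 50 gave 230 at 12 hrs and 348 at 168 hrs. Without normalization between arrays the median of the release genes was 0.012 at 12 hrs, the opposite sign, -0.021 at 24 hrs, -0.094 at 72 hrs and -0.11 at 120 hrs, but that of all genes then moved to 0.08, 0.18 and 0.13 at 24, 72 and 120 hrs. All genes at 72 hrs were then split as 166 lower and 1098 higher (377 and 779 as reported), and at 120 hrs as 235 and 1081 (449 and 853). With an offset of 50 the release median at 120 hrs was -0.20. Between phases 13 of all genes passed without a detection requirement, 0 to 565 of all genes and 0 to 4 release genes with an array left out, the upper ends without the 48 hrs array. No called gene reversed. Rims1, Vamp8 from 48 hrs, and Snap25 and Vamp1 at 120 hrs stayed past 2-fold under every scaling, offset, probe and background choice. Snap25 at 72 hrs (-0.82), Vamp2 at 72 hrs (-0.77), Nsf at 120 hrs (-0.82), Stx1a at 72 and 120 hrs (-0.94 and -0.93), Rab3d at 12 hrs (-0.96), Cplx3 at 48 hrs (0.96), Vamp5 at 24 and 120 hrs (0.92 and 0.97), Syt12 and Rims2 fell short under at least 1 choice. With 1 array per group the causes of these shifts were not tested. No paired analysis was possible because no group had a second array.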
